A study of Mus musculus with 15 samples.

Results

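The 6 genes described here are layer 6 corticothalamic identity genes, chosen by name from markers of deep cortical neurons. They were Foxp2, Tle4, Zfpm2, Sox5, Crym and Nxph3, which are 6 of the 19475 genes in the table, and all 6 passed the filter on low values. RNA-Seq was performed at E16.5 on the brains of 15 C57BL/6J embryos, with 5 WT, 5 Tbr1+/K228E and 5 Tbr1K228E/K228E embryos and 3 females and 2 males in each genotype. The K228E mutation was knocked into exon 1 of Tbr1 in the germline, and the selection cassette was removed with protamine-Cre. The tissue is named brain in the sample labels and forebrain in the study, and it was not dissected to the cortex. Values are normalized read counts, which are estimated read counts divided by a size factor per embryo. They sum to between 30535900 and 31768500 per embryo after that scaling.

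Corticothalamic neurons are the excitatory neurons of cortical layer 6 that send axons to the thalamus. TBR1 is a T-box transcription factor of early-born cortical neurons, and it is known for promoting layer 6 identity and for restraining Fezf2, a regulator of layer 5 subcerebral neurons. Among the 6 genes, Foxp2 encodes a forkhead transcription factor that can bind TBR1, Sox5 encodes a SoxD transcription factor that restrains Fezf2 in layer 6 and subplate neurons, Tle4 encodes a Groucho corepressor, and Zfpm2 encodes FOG2, a cofactor of GATA factors. Crym encodes mu-crystallin, which binds thyroid hormone in the cytosol, and Nxph3 encodes a secreted ligand of alpha-neurexins. Several of them are also made elsewhere. Foxp2 is known from striatum, thalamus and Purkinje cells, Sox5 from progenitors and oligodendrocyte precursors, and Crym from layer 5 neurons.

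No member passed the adjusted threshold in any of the 3 comparisons between genotypes. Among the 18 single-gene comparisons, Crym and Tle4 each separated genotypes without overlap. Crym was 1.83-fold higher in Tbr1K228E/K228E than in WT embryos, where 0.321% of all genes separated upward. It also separated upward from Tbr1+/K228E embryos, as did 0.491% of all genes. Tle4 was 0.829-fold in Tbr1K228E/K228E relative to Tbr1+/K228E embryos, where 0.388% separated downward, and it overlapped WT embryos. Foxp2, Zfpm2, Sox5 and Nxph3 overlapped between genotypes in every comparison. Over the 15 embryos, with genotype means removed, correlations between the 6 genes were of both signs. Tle4, Sox5, Crym and Nxph3 varied with markers of cortical excitatory neurons, whereas Foxp2 and Zfpm2 varied with markers of the thalamus. Purkinje cell markers were not correlated with the genes, so this relation is not shown to be particular to the thalamus.

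The mutated gene itself was examined first. Tbr1 (ENSMUSG00000035033, chromosome 2 of GRCm38, 61802930 to 61814114, plus strand) had normalized read counts of 3517, 4122, 4871, 2097 and 3079 in the WT embryos. The Tbr1+/K228E embryos had 4738, 8543, 6337, 6743 and 4985, and the Tbr1K228E/K228E embryos had 11530, 7148, 16015, 10671 and 11467. All homozygous embryos lay above all WT embryos, and 1 WT embryo lay above the lowest heterozygous embryo. Tbr1 rose in Tbr1K228E/K228E relative to WT embryos, with a log2 fold change of 1.69 (SE 0.23, limma adjusted p = 0.00437). Without the 3 embryos of high summed Hox counts, described below, the change was 1.48 (limma adjusted p = 0.0613), and the call was lost there and in either sex alone. The change of 0.85 (SE 0.23) in Tbr1+/K228E embryos had an unadjusted limma p of 0.00225 and did not pass the correction (limma adjusted p = 0.999). No gene passed the correction in that comparison. The genes below were therefore measured in embryos in which the homozygous genotype went with more Tbr1 transcript, and gene-level values cannot tell the mutant from the WT transcript.

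The levels of the members were compared per kilobase of exon (normalized read count divided by the length of the union of exons) in WT embryos. Tle4 had the highest level, 584 ± 75.0 (SD, n = 5), and Zfpm2 the lowest, 135 ± 13.3 (SD, n = 5). Nxph3 at 299 ± 48.8, Sox5 at 285 ± 78.6 and Foxp2 at 252 ± 19.6 (SD, n = 5 each) differed by less than the SD of Sox5. Crym was at 186 ± 53.9 (SD, n = 5) in WT embryos and at 333 ± 58.6 (SD, n = 5) in Tbr1K228E/K228E embryos. The order in the middle depends on which transcripts are counted, since Foxp2 and Sox5 have 20 and 14 annotated transcripts. With the longest transcript as the length, Foxp2 was at 610 and Sox5 at 566, both above Nxph3 at 299.

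The transcription factors are given first. Foxp2 (ENSMUSG00000029563) spans 14901349 to 15441977 of chromosome 6 (GRCm38, plus strand). Counts, normalized as above, were 4213, 4210, 3749, 4565 and 3880 in WT embryos, 3852, 2756, 3975, 4551 and 4960 in Tbr1+/K228E embryos, and 3896, 4387, 3371, 4089 and 3724 in Tbr1K228E/K228E embryos. The 3 genotypes overlapped, and the lowest and the highest embryo were both heterozygous. The log2 fold change relative to WT embryos was -0.08 (95% confidence interval -0.35 to 0.18) in homozygous and -0.06 (-0.32 to 0.20) in heterozygous embryos.

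Sox5 (ENSMUSG00000041540) lies on the minus strand of the same chromosome, from 143828425 to 144781977. Its normalized read counts were 3917, 4123, 5685, 2510 and 4260 in WT embryos, 3695, 4405, 4115, 4977 and 4028 in Tbr1+/K228E embryos, and 3693, 3175, 4434, 3022 and 3590 in Tbr1K228E/K228E embryos. The WT embryos alone covered the whole range of the other genotypes. The log2 fold change relative to WT embryos was -0.16 (95% confidence interval -0.51 to 0.19) in homozygous and 0.09 (-0.26 to 0.44) in heterozygous embryos. The homozygous value was -0.03 without the third WT embryo, -0.32 without the fourth, and -0.39 without 3 embryos with high hindbrain markers, and the heterozygous value ranged from -0.07 to 0.22 on leaving out 1 embryo. The kit does not mark strand, so reads from Sox5 and from the antisense gene Sox5os1, whose exons overlap it, cannot be told apart.

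Zfpm2 (ENSMUSG00000022306), the GATA cofactor, lies on chromosome 15 from 40655035 to 41104592 on the plus strand. It had normalized read counts of 1164, 1268, 1211, 1493 and 1299 in WT embryos, 1256, 807, 1093, 1231 and 1351 in Tbr1+/K228E embryos, and 1254, 1717, 1071, 1428 and 1324 in Tbr1K228E/K228E embryos. The genotypes overlapped, with the second Tbr1+/K228E embryo lowest, as it also was for Foxp2. The log2 fold change was 0.07 (95% confidence interval -0.22 to 0.35) in homozygous and -0.18 (-0.47 to 0.11) in heterozygous embryos relative to WT embryos. Without the second Tbr1+/K228E embryo the heterozygous value was -0.06.

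Tle4 (ENSMUSG00000024642), the corepressor, lies on the minus strand of chromosome 19 from 14448150 to 14598051. Its normalized read counts were 3212, 3264, 4022, 2846 and 3298 in WT embryos, 3393, 3887, 3374, 3731 and 3591 in Tbr1+/K228E embryos, and 2879, 2777, 3142, 3084 and 3014 in Tbr1K228E/K228E embryos. All 5 homozygous embryos lay below all 5 heterozygous embryos, whereas both genotypes overlapped WT embryos. The log2 fold change between homozygous and heterozygous embryos was -0.27 (SE 0.07, 95% confidence interval -0.43 to -0.12). The exact permutation p was 0.00794 (two-sided), which is the smallest p that 5 against 5 embryos can give. Any separation without overlap gives this value, here and for Crym below, so it adds nothing to the separation itself. It was not adjusted for the 18 single-gene comparisons. The limma adjusted p over 16507 genes was 0.593. The difference was -0.27 in females and -0.26 in males. Against WT embryos the log2 fold change was -0.15 (-0.31 to 0.00) in homozygous and 0.12 (-0.04 to 0.27) in heterozygous embryos. The first of these was -0.25 in females and -0.01 in males. The heterozygous embryos lay 0.19 (95% confidence interval 0.06 to 0.33) above the midpoint of the other genotypes on the log2 scale, with a limma adjusted p of 0.993.

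Crym (ENSMUSG00000030905), the thyroid hormone-binding protein, lies on the minus strand of chromosome 7 from 120186380 to 120202111. Its normalized read counts were 408, 608, 748, 524 and 872 in WT embryos, 621, 847, 704, 733 and 620 in Tbr1+/K228E embryos, and 960, 942, 1432, 1175 and 1136 in Tbr1K228E/K228E embryos. Every homozygous embryo lay above every embryo of the other genotypes, and WT and heterozygous embryos overlapped. The means were 632 ± 183, 705 ± 93.6 and 1129 ± 199 (SD, n = 5 each). The log2 fold change of homozygous relative to WT embryos was 0.87 (SE 0.17, 95% confidence interval 0.50 to 1.24) with an exact permutation p of 0.00794. Crym ranked 27 of 16507 genes in the limma fit, and its limma adjusted p of 0.0968 missed the threshold of 0.05.

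Crym was also separated from the heterozygous embryos, with a log2 fold change of 0.67 (SE 0.17, limma adjusted p = 0.550, exact permutation p = 0.00794). The heterozygous embryos differed from WT embryos by 0.20 (95% confidence interval -0.17 to 0.57). Within females the difference between homozygous and WT embryos was 0.93, and within males it was 0.77. The Crym call depended on the processing. The limma adjusted p was 0.00706 with an empirical null, the kind of correction that the study applied, and 0.0243 without the fifth WT embryo, with a log2 fold change of 1.00. With the mean log2 of 9 cortical excitatory markers as a covariate, the limma adjusted p was 0.00495 (log2 fold change 0.82). Other settings moved it the other way, to 0.133 with sex as a covariate, 0.129 after quantile normalization, up to 0.325 on leaving out another single embryo, 0.421 with the homozygous and WT embryos alone and 0.525 without 3 embryos with high hindbrain markers (log2 fold change 0.60).

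Nxph3 (ENSMUSG00000046719), the neurexin ligand, lies on the minus strand of chromosome 11 from 95509845 to 95514570. Its normalized read counts were 569, 607, 639, 529 and 796 in WT embryos, 644, 686, 600, 788 and 683 in Tbr1+/K228E embryos, and 592, 502, 685, 642 and 559 in Tbr1K228E/K228E embryos. The genotypes overlapped, and the log2 fold change relative to WT embryos was -0.07 (95% confidence interval -0.30 to 0.16) in homozygous and 0.12 (-0.11 to 0.36) in heterozygous embryos.

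**Figure D1:**
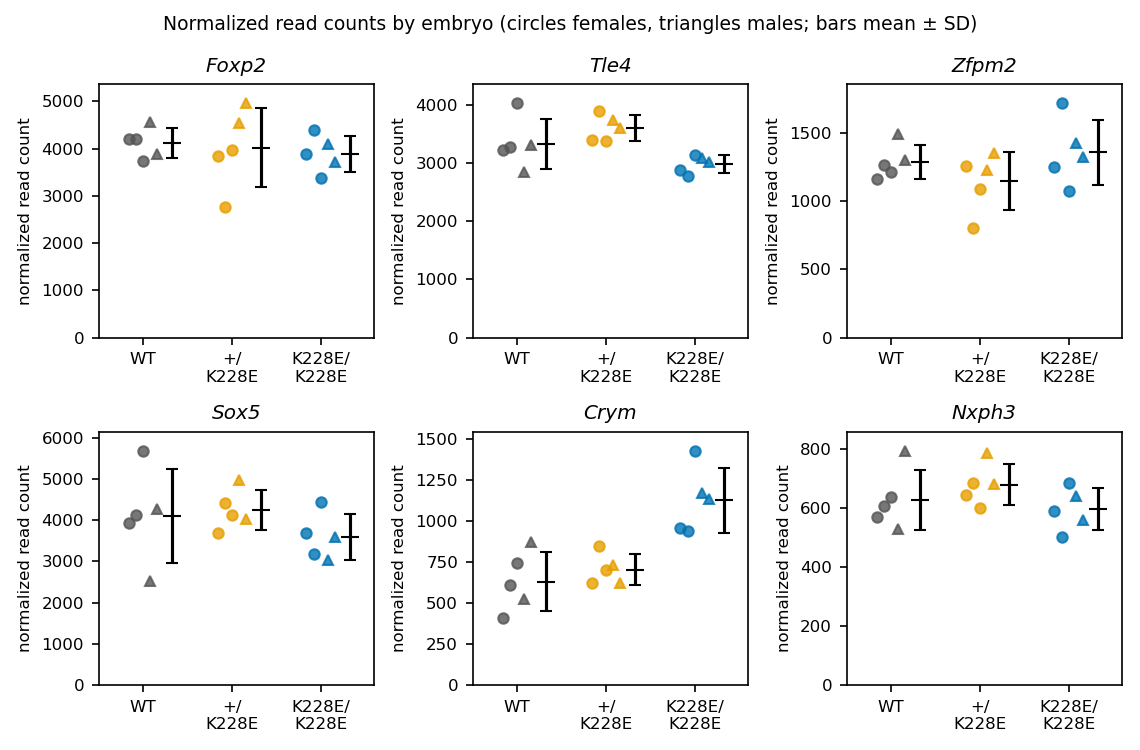
Normalized read counts of the 6 genes (y axes, starting at 0) in each embryo by genotype (x axes), with the mean ± SD of 5 embryos beside the points. The 5 Tbr1K228E/K228E embryos are above all others for Crym, from 942 to 1432, and below all Tbr1+/K228E embryos for Tle4.

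As a group, the 6 genes were set beside all 16507 genes tested. Between homozygous and WT embryos 0 of 6 members passed the limma adjusted threshold, where 21 of all genes (0.127%) did, and 1 member had an unadjusted p under 0.05, as did 3.23% of all genes. Crym was 1 of the 53 genes (0.321%) whose homozygous embryos all lay above the WT embryos, and none of the members was among the 45 (0.273%) that lay below. Between heterozygous and WT embryos 0 members and 0 of all genes (0%) passed the limma adjusted threshold, 0 members had an unadjusted p under 0.05 (1.79% of all genes did), and none was without overlap, where 0.103% of all genes were separated upward and 0.158% downward. Between homozygous and heterozygous embryos 0 members passed the limma adjusted threshold (0.0788% of all genes did), and 2 had an unadjusted p under 0.05, as did 3.30% of all genes. These were Crym, separated upward like 0.491% of all genes, and Tle4, separated downward like 0.388%. The median log2 fold change of the 6 genes was -0.08, 0.10 and -0.11 in these comparisons. That of all genes was within 0.01 of 0 in each. Each pair of comparisons shares the embryos of 1 genotype, so they are not independent of each other.

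**Figure D2:**
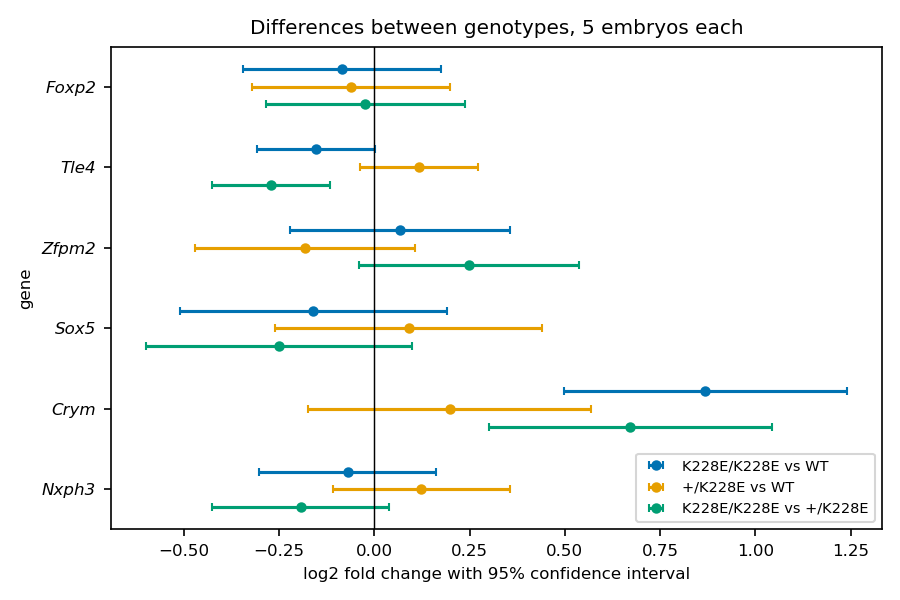
Log2 fold change (x axis) of each gene (y axis) in the 3 comparisons between genotypes, with bars for the 95% confidence interval of the limma fit over 15 embryos. For Crym the intervals of both comparisons of homozygous embryos lie above 0, and for Tle4 the interval of homozygous against heterozygous embryos lies below 0.

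Whether the 6 genes vary together was examined across embryos, with the mean of each genotype removed from the log2 values. Of the 15 pairs of members, 7 had a positive and 8 a negative correlation, and the signs divided the members. Foxp2 and Zfpm2 varied together (n = 15, Pearson r = 0.87, permutation adjusted p = 0.00322; Spearman rho = 0.74, permutation adjusted p = 0.0242). The 6 pairs among Tle4, Sox5, Crym and Nxph3 had r from 0.53 to 0.83 and Spearman rho from 0.64 to 0.80. Of these, 2 passed 0.05 by the permutation adjusted p of Pearson's r, and all 6 by that of Spearman's rho. All 8 pairs across this division were negative, from -0.55 to -0.23. Adjusted over 39 correlations, 5 of the 15 pairs passed 0.05 by the permutation p of Pearson's r. The positive ones were Foxp2 with Zfpm2, Tle4 with Sox5 (r = 0.83, permutation adjusted p = 0.0280) and Crym with Nxph3 (r = 0.73, permutation adjusted p = 0.0280). Without the 2 embryos farthest from the median of the second gene, these correlations were 0.78, 0.52 and 0.59.

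The same embryos were then described by the mean log2 of marker lists for other parts of the brain. The lists correlated with the members were the cortical excitatory, thalamic, striatal and hindbrain Hox lists. Purkinje cell markers were not among them, so a relation to 1 list is not shown to be particular to that region. The 9 cortical excitatory markers, led in level by Zbtb18, had a positive correlation with Sox5 (r = 0.88, permutation adjusted p = 0.00299), Tle4 (r = 0.84, permutation adjusted p = 0.00299), Crym (r = 0.77, permutation adjusted p = 0.0274) and Nxph3 (r = 0.68, permutation adjusted p = 0.0428). The same markers had a negative correlation with Foxp2 (r = -0.53, permutation adjusted p = 0.0280) and Zfpm2 (r = -0.65, permutation adjusted p = 0.0274). The 9 thalamic markers, led in level by Tcf7l2, had a correlation of 0.90 with both Foxp2 (permutation adjusted p = 0.00850) and Zfpm2 (permutation adjusted p = 0.00299). Their correlations with the other 4 members lay between -0.45 and -0.10, and none passed. No member passed with the 13 striatal markers, where Zfpm2 had r = -0.54 (permutation adjusted p = 0.0511) and Foxp2 had r = -0.37 (permutation adjusted p = 0.135). Spearman's rho was 0.88 for Sox5, 0.78 for Tle4, 0.80 for Crym and 0.65 for Nxph3 with the cortical markers, and 0.76 for Foxp2 and 0.84 for Zfpm2 with the thalamic markers (permutation adjusted p at most 0.0445).

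**Figure D3:**
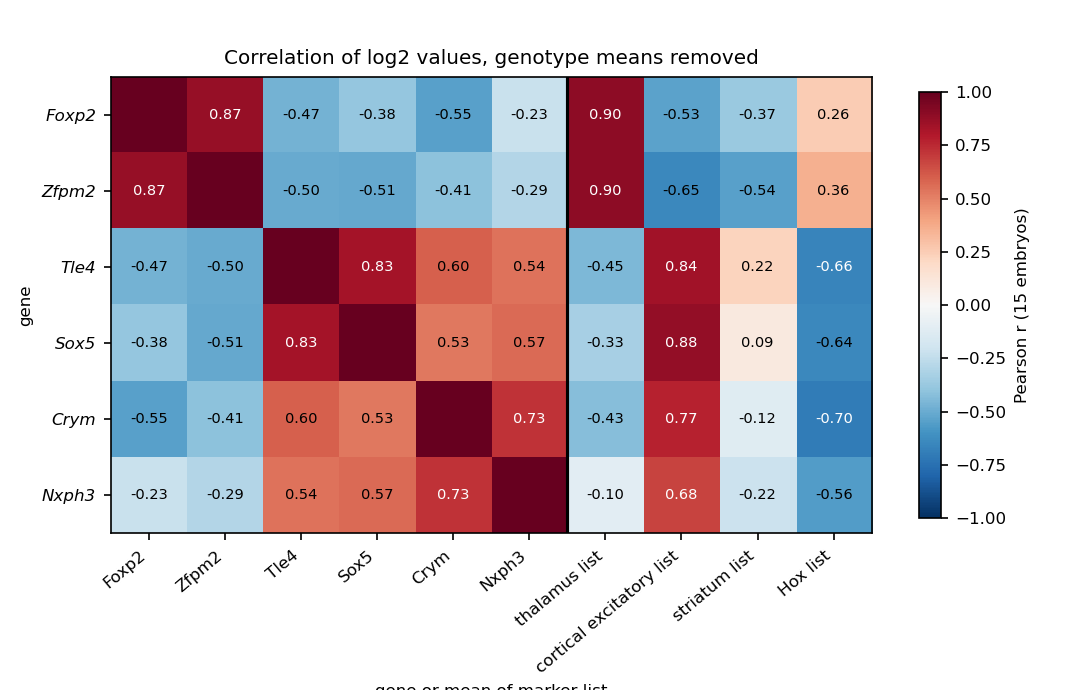
Pearson correlation over 15 embryos, with genotype means removed, of each of the 6 genes (rows) with each other gene and with the mean of each marker list (columns, lists right of the line). Foxp2 and Zfpm2 have r = 0.90 with the thalamus list, and the other 4 genes have r from 0.68 to 0.88 with the cortical excitatory list.

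For the thalamic markers 1 embryo stood apart, but not for these markers alone. In the second Tbr1+/K228E embryo the 9 thalamic markers summed to 11973, against 18036 to 28722 in the other 14 embryos, and this embryo had the lowest Foxp2 and Zfpm2. The Purkinje cell markers, which share Rora with the thalamic list, summed to 2956 in it, against 3664 to 7279 in the others. The FOG and GATA genes summed to 247, against 490 to 1674. Without it and the other embryo farthest from the median, the correlation with the thalamic markers was 0.69 for Foxp2 and 0.82 for Zfpm2, with no test of these reduced sets. The cortical correlations on the same footing were 0.81 for Sox5, 0.73 for Tle4, 0.77 for Crym and 0.67 for Nxph3. Slc17a6, a vesicular glutamate transporter, is in both lists. Since whole tissue was measured, fewer cells of a type and less RNA per cell cannot be told apart, and the level of Foxp2 and Zfpm2 in these samples cannot be taken as that of layer 6 alone.

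**Figure D4:**
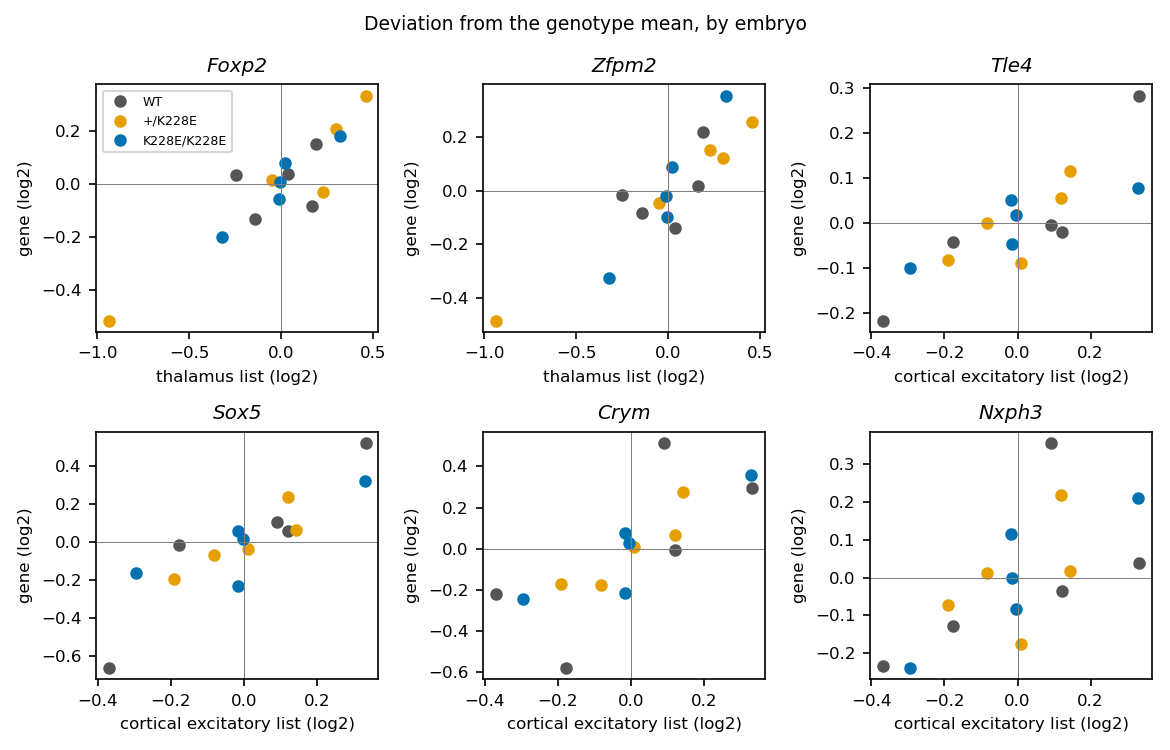
Deviation of each gene (y axes, log2) and of the marker list it followed (x axes, log2) from the genotype mean, with 1 point per embryo coloured by genotype. The lone point at the lower left for Foxp2 and Zfpm2 is the second Tbr1+/K228E embryo, and the cortical relations include embryos of all 3 genotypes along the diagonal.

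Hindbrain markers were uneven between embryos. The 17 Hox genes in the table, which mark hindbrain and spinal cord, summed to normalized read counts from 3.00 to 3963. WT embryos 1 and 4 and Tbr1+/K228E embryo 1 had 1150, 3286 and 3963, and no other embryo reached 1000. The Hox list had a negative correlation with Crym (r = -0.70, permutation adjusted p = 0.0274), Tle4 (r = -0.66, permutation adjusted p = 0.0280) and Sox5 (r = -0.64, permutation adjusted p = 0.0280). Spearman's rho was -0.75, -0.64 and -0.60 (permutation adjusted p = 0.0206, 0.0388 and 0.0597), so that of Sox5 did not pass. Without the 3 embryos named above r was -0.80, -0.52 and -0.37, and the relation of Sox5 rests in part on them. With the Hox list as a covariate the Crym difference between homozygous and WT embryos was 0.75 (limma adjusted p = 0.0476). Without the 3 embryos it was 0.60 (limma adjusted p = 0.525), so the difference was smaller and its adjusted p higher without them. In those 12 embryos the thalamic correlation was 0.93 for Foxp2 and 0.92 for Zfpm2, and the cortical correlation was 0.81 for Sox5, 0.72 for Tle4, 0.68 for Crym and 0.50 for Nxph3. Meningeal markers (13 genes, led by Igf2) summed to 1713 to 45048, and their part in the Crym difference was not tested beyond the fit with both lists as covariates, where the difference was 0.73 (limma adjusted p = 0.0487).

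Other markers of cortical neurons were read for the same comparison, to see whether the members differed from their neighbours. In a list of 12 further corticothalamic and layer 6 genes 1 fell in homozygous relative to WT embryos and none rose. That gene was Wnt7b, a secreted WNT ligand of deep-layer neurons, with 2676 ± 407 (SD, n = 5) normalized read counts in WT, 2660 ± 358 in Tbr1+/K228E and 1541 ± 140 in Tbr1K228E/K228E embryos (log2 fold change -0.79, SE 0.11, limma adjusted p = 0.00493). Relative to heterozygous embryos it was also lower (-0.78, limma adjusted p = 0.00897). That call was lost with an empirical null, where 0 of all genes passed (limma adjusted p = 0.0985 for Wnt7b), and with the replicate block (limma adjusted p = 0.0646). The neurotensin receptor gene Ntsr1, a standard marker of layer 6 corticothalamic neurons, had a log2 fold change of -0.35 (limma adjusted p = 1.00). The values were -0.46 for the transcription factor gene Nfia, 0.32 for Ppp1r1b, which encodes DARPP-32, and -0.22 for the sulfotransferase gene Hs3st4, and none of them passed. With its own DESeq2 fit and corrected p-values, the study listed Nfia as downregulated in homozygous embryos. In the limma fit its unadjusted p was 0.00522. The list had 3 genes with an unadjusted p under 0.05, all lower, and a median of -0.07. Of all genes tested in this comparison, 3.23% had an unadjusted p under 0.05, and 1.76% had one and were lower, which is the background for the counts of this kind in each list.

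Layer 5 subcerebral genes did not pass either, with 0 of 10 past the limma adjusted threshold, 2 at an unadjusted p under 0.05 and a median of 0.12. The 2 were Fezf2, with a log2 fold change of 0.66 (SE 0.24), and the natriuretic peptide receptor gene Npr3, with 0.50 (SE 0.21). Among the 13 upper layer and callosal genes 0 passed and 4 had an unadjusted p under 0.05, namely Inhba (0.82), Rorb (-0.33), Plxnd1 (-0.24) and Ptn (-0.16). Rorb, like Nfia, was listed by the study as downregulated in homozygous embryos. In the subplate list 0 of 8 passed, with 0 at an unadjusted p under 0.05 and the widest value at Ccn2 (-0.51). In the cortical excitatory list 0 of 9 passed and 1, Bhlhe22 (0.45), had an unadjusted p under 0.05. The cortical excitatory list had a median of 0.00 and ran from -0.14 to 0.45 between homozygous and WT embryos. Crym was at 0.87 and Tle4 at -0.15 in the same comparison, and their difference from the list was not tested. Crym had the highest value of the 58 genes in these layer lists, of which Inhba was next.

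**Figure D5:**
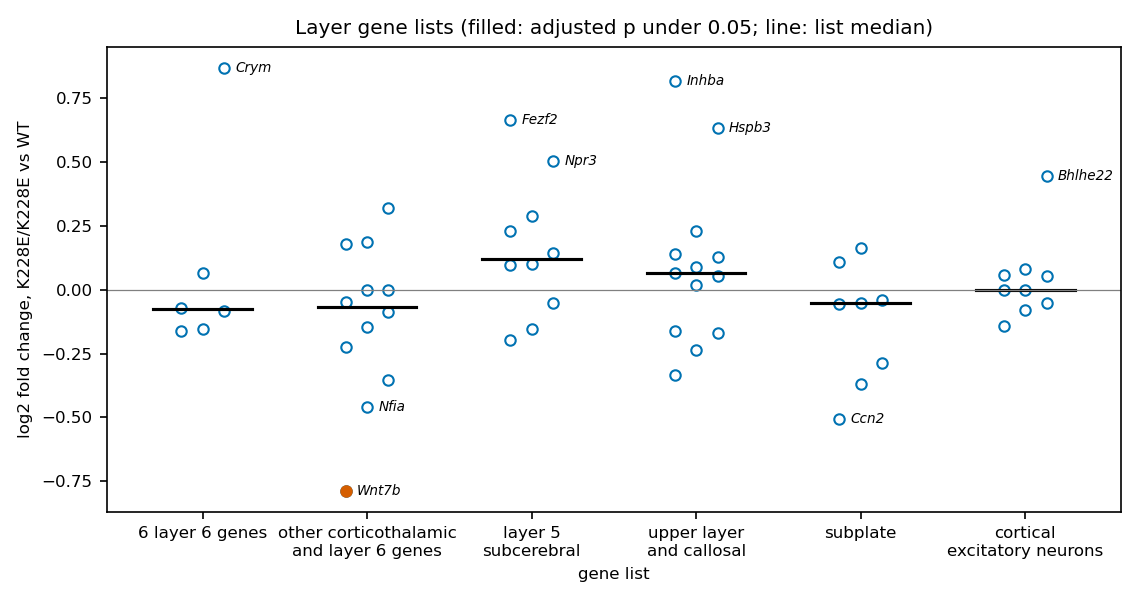
Log2 fold change of Tbr1K228E/K228E relative to WT embryos (y axis) for each gene of 6 lists of cortical genes (x axis), with the list median as a line and genes past the limma adjusted threshold filled. Wnt7b at -0.79 is the 1 filled point, and Crym at 0.87 is the highest.

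The families and pathways of the members were checked in the same fit. Among 8 relatives and partners of Foxp2, Tbr1 alone passed, and Foxp1, its closest relative in cortex and striatum, was at 0.19. The 5 other Groucho family genes lay between -0.07 and 0.29, the 4 FOG and GATA genes tested between -0.25 and 0.05, and the SoxD genes Sox6 and Sox13 at 0.03 and 0.04. The 6 neurexophilin and neurexin genes lay between -0.10 and 0.02. In these 4 families 0 genes passed and 0 had an unadjusted p under 0.05 between homozygous and WT embryos by limma. Of 15 genes of thyroid hormone handling, the pathway of Crym, 0 passed and 1 had an unadjusted p under 0.05. That was Klf9, a gene induced by thyroid hormone, with a log2 fold change of -0.46 (SE 0.16), whereas Hr, which is also induced by thyroid hormone, was at 0.29. Of the 15 genes 10 had a positive value, and the median was 0.02. The receptor genes Thra and Thrb were at 0.07 and 0.25, and the deiodinase gene Dio2, whose product makes the active hormone, was at 0.36. Ttr, which encodes the hormone carrier transthyretin, was at -0.45 with an SE of 1.51, and its means of 8975 ± 7768 in WT and 9419 ± 6930 in homozygous embryos (SD, n = 5 each) ran the other way, so it has no clear direction.

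Markers of other regions did not pass between homozygous and WT embryos. By limma 0 of 13 striatal, 0 of 9 thalamic, 0 of 7 Purkinje cell, 0 of 6 oligodendrocyte precursor, 0 of 14 tested Hox and 0 of 13 meningeal genes passed, and 0 in each list had an unadjusted p under 0.05. Their median log2 fold changes were 0.03, -0.01, -0.21, -0.16, -1.52 and -0.76 in that order. The summed thalamic markers were 21944 ± 2917 (SD, n = 5) in WT and 22440 ± 3827 in homozygous embryos, and the summed cortical excitatory markers 37556 ± 8118 and 38483 ± 7750.

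The genes whose profile over all 15 embryos was most like that of each member were found among 13542 genes with a mean of at least 50, by Pearson r of the log2 values. Genotype means were not removed here, so differences between genotypes are part of the likeness. The nearest to Crym was Nrgn (r = 0.91), which encodes neurogranin, a calmodulin-binding protein of excitatory neurons. Usp43 and Rabgap1l followed, at 0.88 and 0.87. Those nearest to Foxp2 were Mab21l1, Irx5 and Irx3, all at 0.91, of which Irx3 and Irx5 encode Iroquois transcription factors. Fibcd1 (0.97), Ttc22 and Dscam (both 0.95) were nearest to Zfpm2. Mllt3 (0.93), the beta-catenin gene Ctnnb1 (0.93) and Neurod6 (0.92), a transcription factor of cortical excitatory neurons that is also in the cortical list, were nearest to Sox5. For Tle4 these were Cblb (0.94), Pcnx (0.91) and Itprid1 (0.90), and for Nxph3 they were B3gat1 (0.85), Ift57 (0.85) and Ccdc22 (0.82).

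Promoter sequence was read for the T-box core motif GGTGTGA on either strand. RefSeq windows of 250 bases before to 50 after a start (GRCm38.p6) were at hand for Tle4 and Sox5, with 2 starts for Tle4. None of these 3 windows held the motif, nor did the Tbr1 window, and 3.98% of all 32851 windows did. The Sox5 window, from 143947057 to 143947356 of chromosome 6, lies inside the gene. No window was at hand for the outer end of Sox5 at 144781977, so that start was not searched. One Tle4 window is shown because Tle4 was the member with a window whose genotypes separated. It lies at chr19:14598134-14598433 on the minus strand, has 28 CpG dinucleotides against a median of 7 over all windows, and is all in lower case because no motif was found in it.
Tle4: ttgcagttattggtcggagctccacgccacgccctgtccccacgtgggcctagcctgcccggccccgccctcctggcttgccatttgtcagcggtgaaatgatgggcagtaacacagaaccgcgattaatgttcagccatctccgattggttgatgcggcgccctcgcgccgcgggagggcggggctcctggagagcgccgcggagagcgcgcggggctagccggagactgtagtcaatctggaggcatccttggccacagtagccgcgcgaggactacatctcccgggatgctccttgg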

How the data were processed

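The 15 embryos were grouped by the genotype in their labels. The authors estimated transcript abundance with Salmon 0.11.2 on GRCm38, summarised it by gene (tximport, R 3.5.3) and divided it by DESeq2 1.22.2 size factors. The deposited table used here holds this normalized signal, not whole reads, so no count model was fitted. The raw reads were not used here. The spacing of low values gave an estimate of 26400000 to 38200000 reads per embryo. Within a genotype, log2 values of embryos correlated at 0.977 to 0.987.

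Differences were fitted with limma 3.58.1 in R 4.3.3 (lmFit, eBayes with a trend) on log2(value + 1), with all 15 embryos together, on the 16507 genes whose mean reached 5. Fold changes are on this log2(value + 1) scale, which understates low genes. P-values were adjusted by Benjamini-Hochberg over all genes tested, with a threshold of 0.05. For the 18 single-gene comparisons, 5 embryos were also permuted against 5 (exact, two-sided). Correlations used 100000 permutations within genotypes. Lists were described by counts and medians. Coordinates and lengths are from GENCODE on GRCm38. The fit was tested on simulated data.

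The named genes are the 6 members, Tbr1, list genes past the threshold, up to 4 per list with the largest change among those with a mean of at least 50, and the 3 genes most like each member. In some lists fewer than 4 of those allowed are named. Outside this rule, Ptn, Thra and Thrb were named after their values were seen, as were Zbtb18, Tcf7l2 and Igf2 as the most abundant genes of their lists, Slc17a6 as shared by 2 lists and Sox5os1 as overlapping Sox5. The members and lists were chosen with earlier results of these data known.

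Alternatives tried were pseudocounts of 0.1 and 10, a minimum mean of 50 and none, upper quartile or quantile scaling, sex as a covariate, a replicate block, robust eBayes, an empirical null, marker lists as covariates, the 2 compared genotypes alone, each sex alone, leaving out each embryo, and the longest transcript as the length. Leaving out the 3 embryos with a Hox sum over 1000 was added after the data were seen.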

Additional observations from a re-analysis of the deposited data

How the results depend on the processing

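Of 486 values of the 18 member differences under an alternative, 461 kept their direction and side of the limma threshold, 7 newly passed it, and 18 changed sign. Those that passed were Crym between homozygous and WT embryos with an empirical null, the Hox list, the Hox and meningeal lists or the cortical excitatory list as covariates, and without the fifth WT embryo, and, with the cortical list, Crym (0.74, adjusted p = 0.0144) and Tle4 (-0.24, adjusted p = 0.0429) between homozygous and heterozygous embryos. Members past the threshold thus numbered 1 in place of 0 between homozygous and WT embryos under each of these, and 2 between homozygous and heterozygous embryos with the cortical list. For Crym against WT embryos the adjusted p ranged from 0.00495 to 0.525 over the alternatives with both sexes, and was 0.748 in females and 0.901 in males alone. All genes past the threshold between homozygous and WT embryos numbered 43 with an empirical null, 38 with the cortical list, 12 with the 2 genotypes alone and 6 without the 3 embryos of high Hox sum, against 21. Between homozygous and heterozygous embryos they numbered 0 with an empirical null and 29 with the cortical list, against 13. Leaving out each embryo gave 12 to 21 and 6 to 8 genes, and 0 to 1 members.

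The sign changes were in differences that did not pass. For Sox5 between heterozygous and WT embryos the value was -0.023 with the Hox list, -0.028 with the cortical list, -0.15 in females and -0.088 without the 3 embryos, and in males its homozygous value was 0.010. For Foxp2 the heterozygous value was 0.17 in males and 0.0087 without the 3 embryos, and homozygous against heterozygous females gave 0.15. Zfpm2 in homozygous males was -0.018, and Crym in heterozygous embryos was -0.0037 in males and -0.027 without the 3 embryos. Leaving out each embryo gave -0.075 to 0.22 for Sox5 and -0.14 to 0.068 for Foxp2 (heterozygous against WT), -0.15 to 0.059 for Foxp2 (homozygous against heterozygous), and -0.022 to 0.15 for Zfpm2 and -0.13 to 0.019 for Nxph3 (homozygous against WT). Uncalled values that kept their sign but moved by over 1.5 times were, relative to WT embryos, homozygous Foxp2 (-0.13 to -0.034), Sox5 (-0.32 to -0.030) and Tle4 (-0.21 to -0.082), and heterozygous Zfpm2 (-0.25 to -0.061), Tle4 (0.064 to 0.19), Crym (0.052 to 0.33) and Nxph3 (0.065 to 0.21). Crym in homozygous relative to WT embryos lay between 0.72 and 1.00. By the longest transcript, WT levels per kilobase were 610 for Foxp2, 732 for Tle4, 222 for Zfpm2 and 566 for Sox5.

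The labels give each genotype the numbers 1 to 5, and those with the same number have the same sex but are separate animals. Deviations from the genotype means of same-numbered WT and homozygous embryos correlated at 0.357, 0.0238, 0.506, 0.158 and 0.169, all positive but not all over 0.1, and the pooled correlation was 0.272 for this pair of genotypes, 0.0609 for WT with heterozygous and 0.0117 for heterozygous with homozygous embryos. The numbers were therefore not taken to pair the embryos. With the replicate block 16 genes passed between homozygous and WT embryos and 2 between homozygous and heterozygous embryos, and no member did (Crym adjusted p = 0.106). An embryo correlated best with its own number in 1 of 5 cases for WT with heterozygous, 3 for WT with homozygous and 2 for heterozygous with homozygous embryos.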
